A study of Mus musculus with 16 samples.

Results

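The 3 stretches are runs of neighbouring genes on mouse chromosomes 8, 10 and 1 whose RNA was higher in mammary tumors than in 1 internal reference library. Members were the genes lying wholly inside chr8:12614277-15001085, chr10:116417868-117845974 or chr1:151344498-152766336 (GRCm38) with at least 10 counts in total over 15 tumors. That gave 77 of the 79 genes inside, out of 27179 genes in the table: 36 on chromosome 8 (2.39 Mb), 28 on chromosome 10 (1.43 Mb) and 13 on chromosome 1 (1.42 Mb). The stretches were chosen from the same tumor and reference values that are described first below, so these ratios are a description without a test. The rule for members does not use the comparisons between treatments, and these were tested. Earlier results of these data were known when members and lists were chosen.

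The stretches hold genes with well-known roles. On chromosome 8 lie Lamp1, a major glycoprotein of the lysosome membrane, Tfdp1, which encodes DP1, the partner with which E2F factors bind the promoters of cell cycle genes, and Cul4a, the scaffold of a cullin-RING ubiquitin ligase. On chromosome 10 lie Mdm2, the ubiquitin ligase that limits p53, Frs2, the docking adaptor of FGF receptors, and Cct2, a subunit of the ring-shaped CCT chaperonin that folds actin and tubulin. Ivns1abp on chromosome 1 encodes a kelch-repeat protein first known for binding an influenza virus protein.

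RNA was sequenced from tumors that grew in BALB/cJ females, 8 to 10 weeks old, from F2 mammary tumor-derived transplants of family F, and genotype Trp53 null was given for all of them. Mice entered treatment at 65 to 100 mm3 and tumors were taken at day 7, 3 per group. Sham mice received control IgG at 25 mg/kg, and TGFbi mice IPW-5371, a small molecule that blocks TGF beta signaling, at 20 mg/kg daily. RT mice had the tumor irradiated once with 10 Gy, and TGFbi+RT mice had drug and radiation. The group called triple here had TGFbi+RT plus anti-PD-L1, an antibody to PD-L1 given weekly at 10 mg/kg. The labels call the reference library a mammary carcinoma of the same genotype and do not say what it was made from. All tumors come from 1 family, so groups are replicates of treatment and not of tumor origin.

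Counts per tumor totalled 11002869 to 17184023 (median 13302488) and the reference 9003730. All levels are in CPM, the usual per-library scaling of a gene's counts by sequencing depth, with TMM factors. Trp53 itself was at 63.6 to 109.4 CPM in the tumors and 53.6 CPM in the reference, and a count over the whole gene does not tell whether a deleted part is missing. The reference library differed from the tumors in epithelial markers, not all in the same direction. Of 8 luminal and 6 basal markers, 6 and 4 were at least 2-fold higher in the tumors. Epcam, Krt5 and Cldn3 had 0 counts in it, whereas the tumors had 112 to 205 CPM of Epcam and 347 to 1142 CPM of Krt5. Its 5 leukocyte markers summed to 463 CPM against 46.1 to 1297 CPM in the tumors, and its 7 macrophage markers to 1601 against 124 to 2439 CPM. All 12 of these markers had a mean log2 ratio of tumors to reference below 0. Krt8 was at 59.1 CPM in the reference, above every tumor (0.33 to 34.6 CPM). Krt18 and Krt14 were at 18.4 and 58.7 CPM in it, within the tumor ranges of 4.81 to 35.4 and 23.2 to 275 CPM. The 6 fibroblast markers of the reference summed to 4672 CPM against 417 to 8109 CPM in the tumors. Among the tumors, triple replicate 2 and TGFbi+RT replicate 3 had leukocyte sums of 1297 and 953 CPM against at most 359.9 CPM in the other 13. Fibroblast sums were 6857 to 8109 CPM in Sham replicate 1, RT replicate 1 and triple replicates 2 and 3, against at most 3936 CPM in the other tumors. Mitochondrial genes took 6.45% of the counts in TGFbi replicate 3, against a median of 2.89%. The labels mark TGFbi replicate 3 and TGFbi+RT replicate 3 as resubmitted libraries. Every ratio to the reference below is a ratio to that 1 library, and the part of its make-up in these ratios was not tested.

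Promoters of 4 members are shown because these genes are among the 7 introduced above and stand for each stretch. Each is the 250 bases before a transcript start in RefSeq on GRCm38.p6. In Lamp1 (chr8:13158911-13159160, plus strand) capitals mark CACGTG, a palindrome read the same on both strands. In Cct2 (chr10:117063853-117064102, minus strand), Mdm2 (chr10:117710759-117711008, minus strand) and Ivns1abp (chr1:151344248-151344497, plus strand) capitals mark only GGGCGG or its reverse complement CCGCCC.
Lamp1: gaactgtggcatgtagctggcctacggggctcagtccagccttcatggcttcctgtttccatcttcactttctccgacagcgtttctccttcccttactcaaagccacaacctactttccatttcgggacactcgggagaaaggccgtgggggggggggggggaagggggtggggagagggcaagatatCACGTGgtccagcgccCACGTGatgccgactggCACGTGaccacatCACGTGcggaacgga
Cct2: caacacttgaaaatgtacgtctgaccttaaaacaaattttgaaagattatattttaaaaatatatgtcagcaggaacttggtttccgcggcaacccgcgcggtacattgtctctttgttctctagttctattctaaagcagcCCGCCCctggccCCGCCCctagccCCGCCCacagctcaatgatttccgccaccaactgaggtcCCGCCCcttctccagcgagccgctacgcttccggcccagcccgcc
Mdm2: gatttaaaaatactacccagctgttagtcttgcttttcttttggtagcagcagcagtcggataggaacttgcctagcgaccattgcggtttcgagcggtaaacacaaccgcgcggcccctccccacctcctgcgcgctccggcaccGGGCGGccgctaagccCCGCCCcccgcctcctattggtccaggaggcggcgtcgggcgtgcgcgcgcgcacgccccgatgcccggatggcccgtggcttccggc
Ivns1abp: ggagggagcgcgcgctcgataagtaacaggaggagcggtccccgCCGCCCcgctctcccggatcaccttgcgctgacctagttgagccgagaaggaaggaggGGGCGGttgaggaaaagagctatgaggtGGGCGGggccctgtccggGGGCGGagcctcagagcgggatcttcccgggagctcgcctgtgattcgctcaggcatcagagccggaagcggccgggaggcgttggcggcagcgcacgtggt
Lamp1 held 4 copies of CACGTG, Cct2 and Ivns1abp held 4 matches of GGGCGG each, and Mdm2 held 2. RefSeq promoters were matched for 55 of the 77 members. GGGCGG was found in promoters of 34 of these 55 genes (61.8%) and in 35.4% of all genes with a window. CACGTG was found in 6 of 55 (10.9%) against 6.86% of all genes, CCAAT in 14 (25.5% against 37.5%) and TATAAA in 3 (5.45% against 14.3%). Over all windows of this length the shares were 32.7% for GGGCGG, 6.02% for CACGTG, 33.8% for CCAAT and 12.4% for TATAAA, both strands searched. The median GC content was 60.0% in the members' windows and 52.4% in all windows. A match is a string of letters and not a measured binding site.

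In the tumors the members took 1.79% to 2.56% of all counts (median 2.26%), and in the reference 0.654% (Wilson 95% interval 0.649% to 0.660%, counting error only). The log2 ratio of a member is the mean over the 15 tumors of log2(CPM + 1) minus the same in the reference, which understates the ratio of low genes. Its median was 1.96 on chromosome 8, 1.31 on chromosome 10 and 2.04 on chromosome 1, against 0.07 over the 19431 genes with at least 10 tumor counts. A ratio of 2-fold or more was seen in 22 of 36, 18 of 28 and 9 of 13 members, beside 14.5% of all genes. All 15 tumors lay above the reference for 28, 21 and 9 members, beside 27.0% of all genes. Both counts restate how the stretches were chosen. In bulk tissue, more cells of a type and more RNA per cell cannot be told apart.

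**Figure D1:**
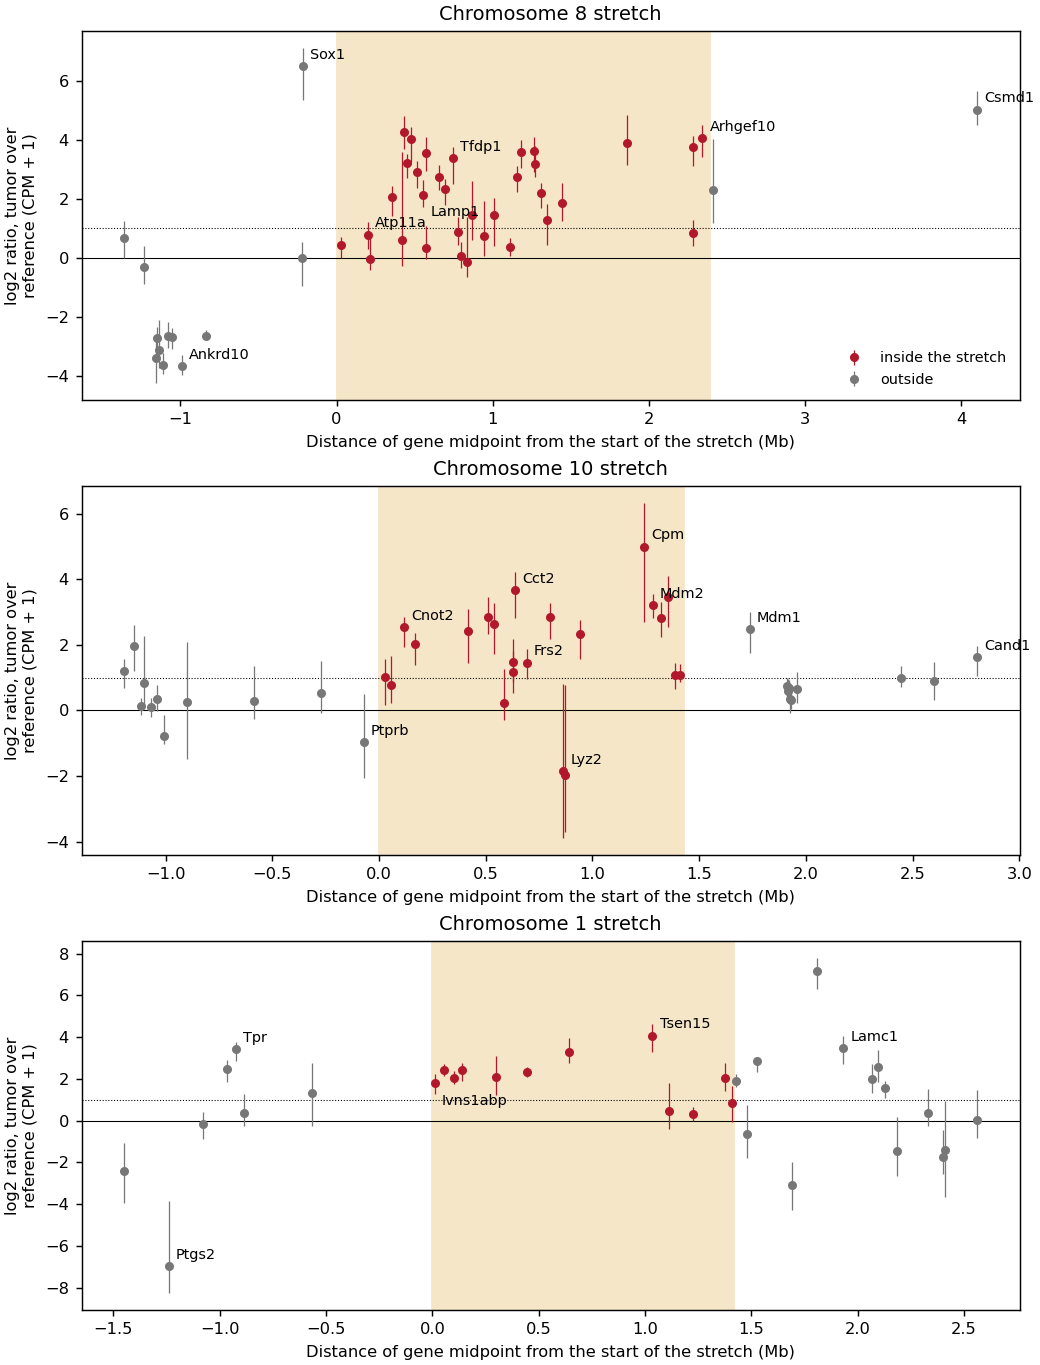
Log2 ratio of tumor to reference (vertical axis, CPM + 1) against the distance of each gene's midpoint from the start of its stretch in Mb, for genes with at least 100 tumor counts. Points are means over 15 tumors and lines run from the lowest to the highest tumor; red points are members and gray points lie outside the shaded stretch. The dotted line marks 2-fold, and each stretch holds members above and below that line. Toward the right end of the chromosome 1 stretch Colgalt2, Rgl1 and Apobec4 lie below it, and Entrez 100861876, between Rgl1 and Apobec4, lies at 2.04.

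On chromosome 8, Tfdp1 was at 126 CPM in the reference and at 729, 1407 and 1709.7 CPM in the lowest, median and highest tumor, a log2 ratio of 3.39 ± 0.37 (SD, n = 15 tumors). Cul4a was at 142 CPM in the reference and at 735, 1127 and 1410.4 CPM in the tumors, a log2 ratio of 2.90 ± 0.29. No tumor came near the reference for either gene. Pcid2, a component of the mRNA export machinery, was at 44.1 CPM in the reference and 430.4, 794 and 989.8 CPM in the tumors (4.03 ± 0.33). Cdc16, a subunit of the anaphase-promoting complex, Upf3a, a factor of nonsense-mediated decay, and Champ1, a chromosome alignment protein, were named after their values were seen, with log2 ratios of 2.76, 3.59 and 3.63.

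On the same chromosome, Lamp1 had the highest level per kilobase of exon in the stretch, 1288 CPM per kb in the tumors against 289 in the reference. Its level was 651 CPM in the reference and 2157, 2863 and 4039.5 CPM in the lowest, median and highest tumor, a log2 ratio of 2.14 ± 0.21. Only 20 of 19431 genes lay above Lamp1 per kilobase in the tumors, and 72 in the reference, so it was an abundant RNA in both. Arhgef10, a guanine nucleotide exchange factor at the right edge of the stretch, was at 55.9 CPM in the reference and 608 to 1291 CPM in the tumors (4.06 ± 0.27). Gas6, the ligand of the TAM receptors Axl and Mertk, was at 152 CPM in the reference and 231, 374 and 934 CPM in the tumors (1.46 ± 0.56), a wider spread than the median SD of 0.28 in the stretch.

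The 3 coagulation genes of chromosome 8 lie side by side and differed in level. F10, coagulation factor X, had 18 counts in the reference, 1.76 CPM, and stood at 34.4, 52.9 and 76.2 CPM in the lowest, median and highest tumor, the highest log2 ratio of the stretch among members with at least 100 tumor counts (4.27 ± 0.30). Proz, protein Z, was named after its values were seen and had a ratio of 3.21 ± 0.31. F7, coagulation factor VII, was at 0.293 CPM in the reference and at 0.0657, 0.489 and 14.6 CPM in the tumors (0.60 ± 0.99), so most tumors had little of it and 1 had much more.

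Among members of chromosome 8 with at least 100 tumor counts, those with the lowest ratios were mostly near silent. Below that limit AF366264 had -0.66 on 14 tumor counts. Grk1, a receptor kinase of the retina, had a ratio of 0.06 and a mean of 0.577 CPM, Tmem255b one of -0.15 at 0.745 CPM, and Gm15350 one of -0.03 at 3.24 CPM. Gm15350 shares 199 exon bases with Atp11a on the other strand, and the strand setting of the counting is not given in the sources used here, so its value is uncertain. The first members at the left edge were abundant with small ratios: Tubgcp3, a part of the gamma-tubulin complex, had 0.42 ± 0.22 and Atp11a, a phospholipid flippase, 0.79 ± 0.26. Dlgap2, a scaffold of the postsynaptic density named after its values were seen, had 0 counts in the reference and 7.92 to 28.2 CPM in the tumors, at least 49.6-fold higher against a floor of 3 reference counts.

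On chromosome 10, Cct2 was at 154 CPM in the reference and 1095, 2089 and 2863 CPM in the lowest, median and highest tumor, a log2 ratio of 3.66 ± 0.38. In the tumors 31 of 19431 genes lay above it per kilobase, in the reference 490.0. Mdm2 was at 102 CPM in the reference and 721, 992 and 1207 CPM in the tumors, a ratio of 3.21 ± 0.20. Nup107, a nuclear pore scaffold protein, was at 45.3 CPM in the reference and 267 to 787 CPM in the tumors (3.46 ± 0.42). Cnot2, of the CCR4-NOT deadenylase, Yeats4, a reader of acetylated histones, and Cpsf6, a pre-mRNA cleavage factor, were named after their values were seen, with ratios of 2.53, 2.84 and 2.32.

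Frs2, also on chromosome 10, was at 233 CPM in the reference and 453, 657 and 854 CPM in the lowest, median and highest tumor, a ratio of 1.46 ± 0.29, so all tumors lay above the reference but by less than Mdm2 or Cct2. Cpm, the membrane-bound carboxypeptidase M, had 24 reference counts, 2.35 CPM, and 20.8, 122 and 267 CPM in the tumors, the highest ratio of the stretch (5.00 ± 0.92). Rap1b, a small GTPase at the right edge, was at 52.7 CPM in the reference and 96.8 to 143 CPM in the tumors (1.09 ± 0.17). Best3, of the bestrophin channel family, was near silent at 0.956 CPM (0.23 ± 0.44).

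The lysozyme genes ran against the rest of chromosome 10. Lyz2, lysozyme of macrophages and other myeloid cells, was at 1432 CPM in the reference and 95.8, 383 and 2502 CPM in the lowest, median and highest tumor, a log2 ratio of -1.86 ± 1.25. Lyz1, the Paneth cell lysozyme, was at 72.5 CPM in the reference and 4.62, 17.0 and 126 CPM in the tumors (-1.98 ± 1.21). For each of them 1 of 15 tumors lay above the reference, triple replicate 2, which also had the highest macrophage marker sum. Lyz1 and Lyz2 are near-identical copies, so reads may have been shared between them. Macrophage markers were higher in the reference than in the median tumor (1601 against 430.2 CPM), and their part in the lysozyme ratios was not tested.

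On chromosome 1, Ivns1abp was at 340.2 CPM in the reference and 823, 1185 and 1610.0 CPM in the lowest, median and highest tumor, a log2 ratio of 1.81 ± 0.26. Rnf2, the RING ubiquitin ligase of Polycomb complex 1, was at 68.6 CPM in the reference and 260.2 to 469.9 CPM in the tumors (2.43 ± 0.24). Tsen15, a subunit of the tRNA splicing endonuclease, was at 5.18 CPM in the reference and 58.7 to 153 CPM in the tumors, the highest ratio of the stretch (4.07 ± 0.40). 1700025G04Rik was at 56.5 CPM in the reference and 384 to 896 CPM in the tumors (3.30 ± 0.33). All 15 tumors lay above the reference for each of these 4 genes. The lowest ratios among members with at least 100 tumor counts belonged to Rgl1, an exchange factor for Ral GTPases (0.30 ± 0.19, mean 144 CPM), and to the scarce genes Colgalt2, a collagen galactosyltransferase (0.47 ± 0.65, 5.02 CPM), and Apobec4, of the cytidine deaminase family (0.87 ± 0.51, 3.01 CPM).

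The values just outside the stretches show how sharp the limits are. Left of chromosome 8 the nearest gene with 100 tumor counts, Sox1, a neural transcription factor, was at 51.9 to 179.9 CPM in the tumors against 3 counts in the reference, and beyond it the reference was the higher library: 10 of 15 genes within 1.5 Mb were at least 2-fold higher in it, with a median log2 ratio of -2.65. Ankrd10, named after its values were seen, was at 926 CPM in the reference and 57.2 to 92.6 CPM in the tumors. Right of chromosome 8, Kbtbd11 had 2.30 and Csmd1 5.04, the latter on 2 reference counts. On chromosome 10, Ptprb, a phosphatase of endothelial cells, had -0.96 on the left and Mdm1 had 2.49 on the right. On chromosome 1, Hmcn1 had 1.34 on the left, and Arpc5, of the actin-nucleating Arp2/3 complex, had 1.91 on the right. Ratios above 2-fold thus also occurred next to each stretch, while the medians of the whole chromosomes were -0.32, -0.28 and 0.14 in the order 8, 10 and 1.

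Ratios between genes within 1 library compare a member with its relatives without dividing by the reference. Per kilobase of exon, Cct2 was at 6.69, 8.38 and 9.96 times the median of the other 7 CCT subunits in the lowest, median and highest tumor, and at 1.32 times in the reference. The other subunits were themselves higher in tumors, with a median log2 ratio of 1.12 and 5 of 7 at 2-fold or more. Mdm2 was at 11.1, 15.7 and 19.2 times its paralog Mdm4 per kilobase in the tumors and 1.73 times in the reference. Cul4a was at 9.65, 15.9 and 21.9 times Cul4b against 1.71 in the reference, and Lamp1 at 10.4, 25.8 and 47.2 times Lamp2 against 2.64. Tfdp1 was at 38.8, 59.0 and 85.9 times Tfdp2 against 15.6, and Frs2 at 56.8, 97.5 and 132 times Frs3, a gene of 2.75 CPM, against 38.9. For Cct2 and these 5 pairs the multiple was higher in every tumor than in the reference, and the members were picked for high tumor values.

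**Figure D2:**
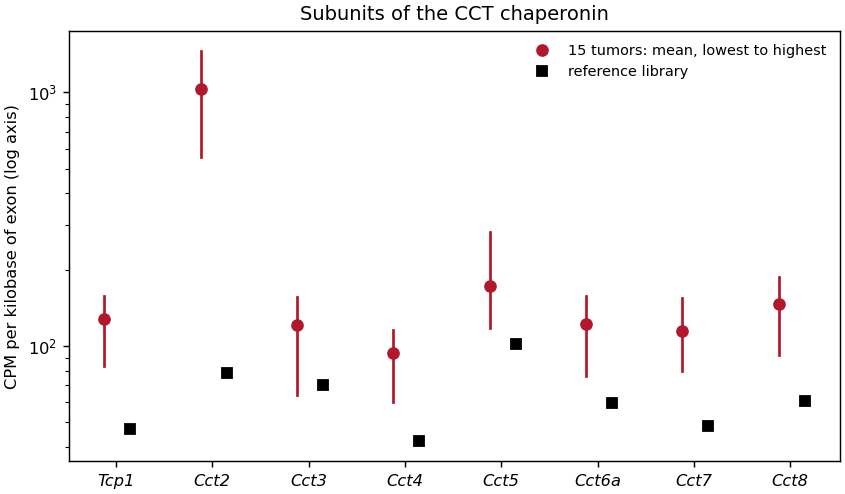
Levels of the 8 CCT chaperonin subunits in CPM per kilobase of exon on a log axis. Red points are means of 15 tumors with lines from the lowest to the highest tumor, and black squares are the reference library; Cct2 is at 1028 in the tumors against 78.5 in the reference, and the other 7 lie between 93.4 and 173 in the tumors.

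The partners of these members had a lower median ratio than the member in each of the 6 lists that hold one. The members were picked for high ratios and the partners were not, so this order restates the choice. Single partners could still lie above the member, as Etv4 and Etv5 did above Frs2 at 1.46. In the cullin-RING ligase 4 list, the cullin exchange factor Cand1 had 1.63 and the substrate receptor Dtl 1.72. Cand1 lies within 1.5 Mb right of the chromosome 10 stretch. With these included, 3 of 8 other genes of the list were at 2-fold or more (median log2 ratio 0.70). Among 12 other E2F, DP and pocket protein genes 1 was, Tfdp2 at 1.43 (median 0.38), and Rb1 had -1.87. Among 21 other p53 regulators and targets 3 were (median 0.00): Perp at 3.17, Phlda3 at 2.16 and Gtse1 at 1.35, while Cdkn1a had 0.20 and Mdm4 0.08. Among 15 other genes of FGF receptor signaling 5 were (median 0.29), with Etv4 at 2.58 and Etv5 at 2.51; Fgfr2, the receptor upstream of Frs2, was at 3655 to 8800 CPM in the tumors and 1 count in the reference. In the same list 5 of 15 were below 0, with Sos1, an exchange factor for Ras, at -5.24 (4960 CPM in the reference and 118 to 146 CPM in the tumors) and the adaptor Gab1 at -1.16. None of 9 other lysosome membrane genes was (median -0.73), and Lamp2 had -1.10. Lamc1, a laminin chain gene right of the chromosome 1 stretch, had 3.46. The shares at 2-fold or more stand beside 14.5% of all genes.

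Per tumor, the median log2 ratio of a stretch moved little. It ran from 1.63 to 2.24 on chromosome 8, from 1.08 to 1.71 on chromosome 10 and from 1.81 to 2.36 on chromosome 1. On chromosome 8 the Sham tumors were at 2.13 to 2.22, TGFbi at 1.85 to 2.24, RT at 1.91 to 2.21, TGFbi+RT at 1.76 to 2.01 and the triple group at 1.63, 1.63 and 2.05, so TGFbi+RT and the triple group lay below all Sham tumors. Leukocyte marker sums were 209 to 953 CPM in TGFbi+RT and 277 to 1297 CPM in the triple group against 46.1 to 175 CPM in Sham, with all 5 markers at an unadjusted p under 0.05 and 0 called by edgeR in both contrasts, and their part in these medians was not tested. On chromosome 1 the Sham tumors were at 2.20 to 2.36 and RT, at 1.81 to 2.10, and the triple group, at 1.87 to 2.05, lay below them. All RT tumors and triple replicates 2 and 3, at 1.63 each on chromosome 8, carry library code A2304. The Sham tumors and triple replicate 1, at 2.05 on chromosome 8, carry A2301. The part of the code in these medians was not tested. On chromosome 10 every group overlapped Sham or lay above it, with Sham at 1.14 to 1.32 and TGFbi+RT at 1.33 to 1.53. The differences are small beside the ratio itself, and all groups share the 1 reference. Each comparison with Sham also uses the same Sham tumors. How often the medians of other runs of genes lie wholly outside the Sham range was not tested, so these separations have no background to stand beside.

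**Figure D3:**
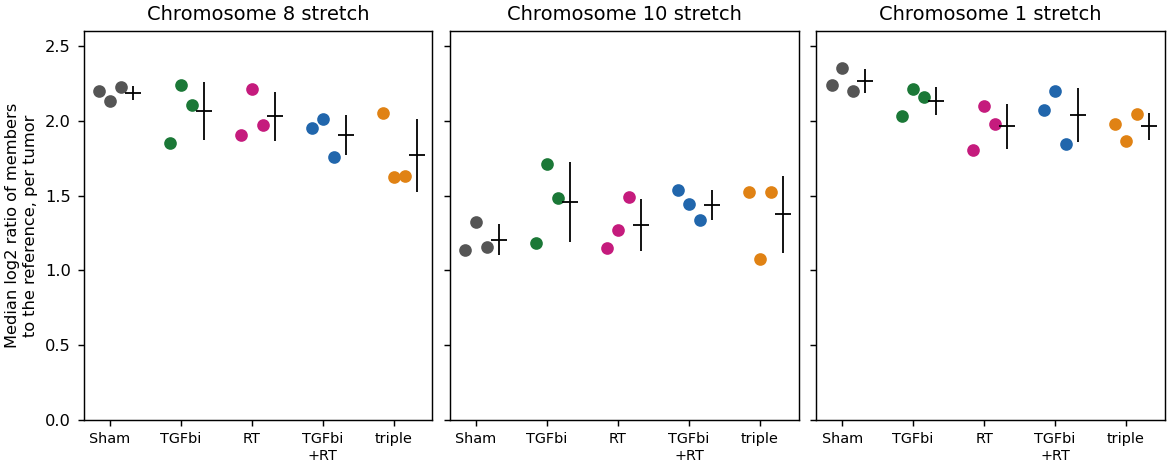
Median log2 ratio of the members to the reference (vertical axis) in each tumor, 3 tumors per treatment group, for the 3 stretches. Black bars are group means ± SD; the points span 1.63 to 2.24 on chromosome 8, 1.08 to 1.71 on chromosome 10 and 1.81 to 2.36 on chromosome 1.

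Of the 77 members, 67 (32, 23 and 12) passed the low-count filter among 16017 genes, which uses group levels. Of these 67, 35 (52.2%) had their lowest tumor in TGFbi+RT replicate 3 or triple replicate 2, beside 27.6% of all genes tested. Triple replicate 2 alone was the lowest tumor for 26 members (38.8%, beside 15.1% of all genes), and TGFbi+RT replicate 3 for 9 (13.4%, beside 12.5%). Of the 67, 9 (13.4%) had their highest tumor in one of these 2, beside 26.1% of all genes. These are the tumors with the highest leukocyte marker sums, 953 and 1297 CPM, and the part of that in the members' values was not tested. Leaving out these 2 tumors, here and below, was not planned in advance. Without both tumors the median log2 ratios were 2.04, 1.38 and 2.08.

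No member was called with treatment by edgeR's quasi-likelihood test at an adjusted p of 0.05. In the comparison of TGFbi with Sham 0 of 67 members were called, beside 1 gene of all 16017 (0.00624%). RT against Sham, TGFbi+RT against Sham, the triple group against Sham, TGFbi+RT against RT, TGFbi+RT against TGFbi, the triple group against TGFbi+RT and the F test over the 5 groups called 0 members beside 0% of all genes. In the same order of 7 contrasts, an unadjusted p under 0.05 was reached by 6, 2, 11, 8, 5, 2 and 1 members, and by 8.48%, 4.2%, 15.0%, 14.9%, 9.62%, 6.06% and 1.99% of all genes. The F test gave 8 members against 10.8% of all genes. DESeq2 called 1 of 70 members with an adjusted p in TGFbi+RT against Sham (beside 3.03% of all genes), 3 of 74 in the triple group against Sham (3.63%), 1 of 67 in TGFbi+RT against RT (0.431%) and 0 in the other 4 contrasts (0.760% of all genes in TGFbi against Sham and 0.00442% in each of the rest). The comparisons with Sham share its 3 tumors.

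**Figure D4:**
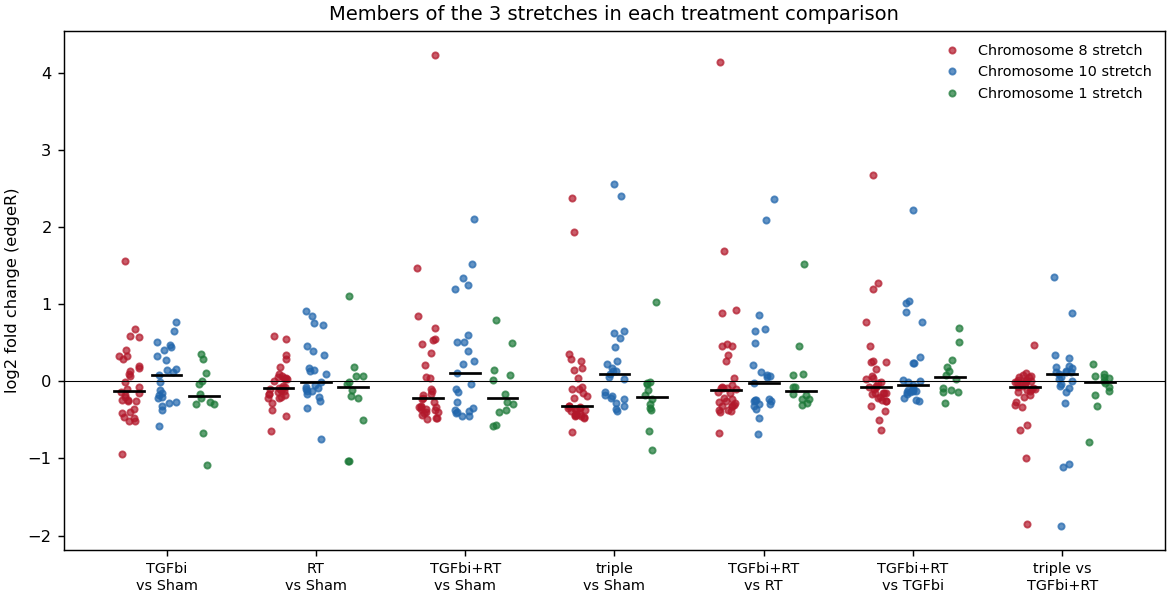
Log2 fold change from edgeR (vertical axis) of each of the 67 tested members in the 7 treatment comparisons, coloured by stretch. Black lines are medians, which lie between -0.33 and 0.11; the highest point is F7 at 4.23 in TGFbi+RT against Sham.

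The medians of the stretches lay between -0.33 and 0.11 in the 7 contrasts. Against Sham, the chromosome 8 members had medians of -0.12 with TGFbi, -0.09 with RT, -0.22 with TGFbi+RT and -0.33 in the triple group, where 24 of 32 were below 0. Chromosome 1 had -0.19, -0.07, -0.22 and -0.20, with 11 of 12 below 0 in the triple group. Chromosome 10 had 0.09, -0.01, 0.11 and 0.10. The medians of all genes in these contrasts lay between -0.01 and 0.01, and 49.5% of all genes were above 0 in the triple group against Sham. Members of a stretch were measured in the same tumors, so their directions are not independent of each other. Without TGFbi+RT replicate 3 and triple replicate 2, TGFbi+RT against Sham had medians of -0.13, 0.03 and -0.13 on chromosomes 8, 10 and 1, and the triple group against Sham -0.25, 0.07 and -0.11, with 9 of 12 below 0 on chromosome 1. Without the 2 resubmitted libraries, TGFbi+RT against Sham had -0.12, 0.04 and -0.12.

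The library names carry a code, A2304 for all RT tumors and triple replicates 2 and 3 and A2301 for all other tumors. RT against Sham and TGFbi+RT against RT thus have no value within a code, and a term for the code rests on the 3 triple tumors. With that term 0 members were called in the 7 contrasts, but medians moved. RT against Sham went to 0.28 on chromosome 8 (22 of 32 above 0), 0.27 on chromosome 10 and -0.06 on chromosome 1. TGFbi+RT against RT went from -0.12 to -0.55 on chromosome 8 and from -0.02 to -0.33 on chromosome 10. The triple group against Sham went to -0.15, 0.06 and -0.13, with 9 of 12 below 0 on chromosome 1, and the triple group against TGFbi+RT from -0.07 to 0.14 on chromosome 8.

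Cul4a was the gene with the smallest F-test p among the 7 genes introduced first (0.0632, edgeR adjusted p = 0.487). It was at 1259, 1410.4 and 1297 CPM in the Sham tumors, 873, 1087 and 1065 with TGFbi, 1127, 1303 and 1216 with RT, 952, 1129 and 735 with TGFbi+RT, and 1151, 745 and 928 in the triple group. TGFbi, TGFbi+RT and the triple group lay below all Sham tumors, and RT overlapped them. The share of all genes that lie below Sham in this way is not given, here or for Lamp1 and F10 below. These comparisons also share the same 3 Sham tumors. The log2 fold changes against Sham were -0.40 ± 0.18, -0.48 ± 0.18 and -0.46 ± 0.18 (edgeR adjusted p = 0.586, 0.2598 and 0.276), so none passed. After a log2 fold change, here and below, ± gives a standard error derived from the edgeR test and not an SD between tumors. Lamp1 was at 3183, 4039.5 and 3321 CPM in the Sham tumors, 2442, 3122 and 2695 with TGFbi, 2578, 3189.9 and 2863 with RT, 3001, 2904 and 2157 with TGFbi+RT, and 2659, 2639.8 and 2757 in the triple group. The same 3 groups lay below Sham, with log2 fold changes of -0.36 ± 0.17, -0.37 ± 0.17 and -0.36 ± 0.17 (edgeR adjusted p = 0.586, 0.323 and 0.336).

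Mdm2, whose protein restrains p53, was at 881, 1081 and 1037 CPM in the Sham tumors, 992, 1208 and 1000.2 with TGFbi, 796, 996 and 974 with RT, 927, 1114 and 852 with TGFbi+RT, and 1025, 721 and 861 in the triple group. All groups overlapped Sham. Its log2 fold change was -0.10 ± 0.17 for RT against Sham and 0.09 ± 0.17 for TGFbi against Sham (edgeR adjusted p = 0.999 and 0.932). Cct2 was at 1721, 2863 and 2649 CPM in the Sham tumors, 1832, 2409.5 and 1593 with TGFbi, 1599.8, 2330.2 and 2302.5 with RT, 1754, 2089 and 1411 with TGFbi+RT, and 2262, 1095 and 2331 in the triple group. All groups overlapped Sham, and the log2 fold change against Sham farthest from 0 was -0.45 ± 0.30 with TGFbi+RT (edgeR adjusted p = 0.488). Tfdp1, Frs2 and Ivns1abp had F-test adjusted p of 0.846, 0.749 and 0.839 in edgeR.

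**Figure D5:**
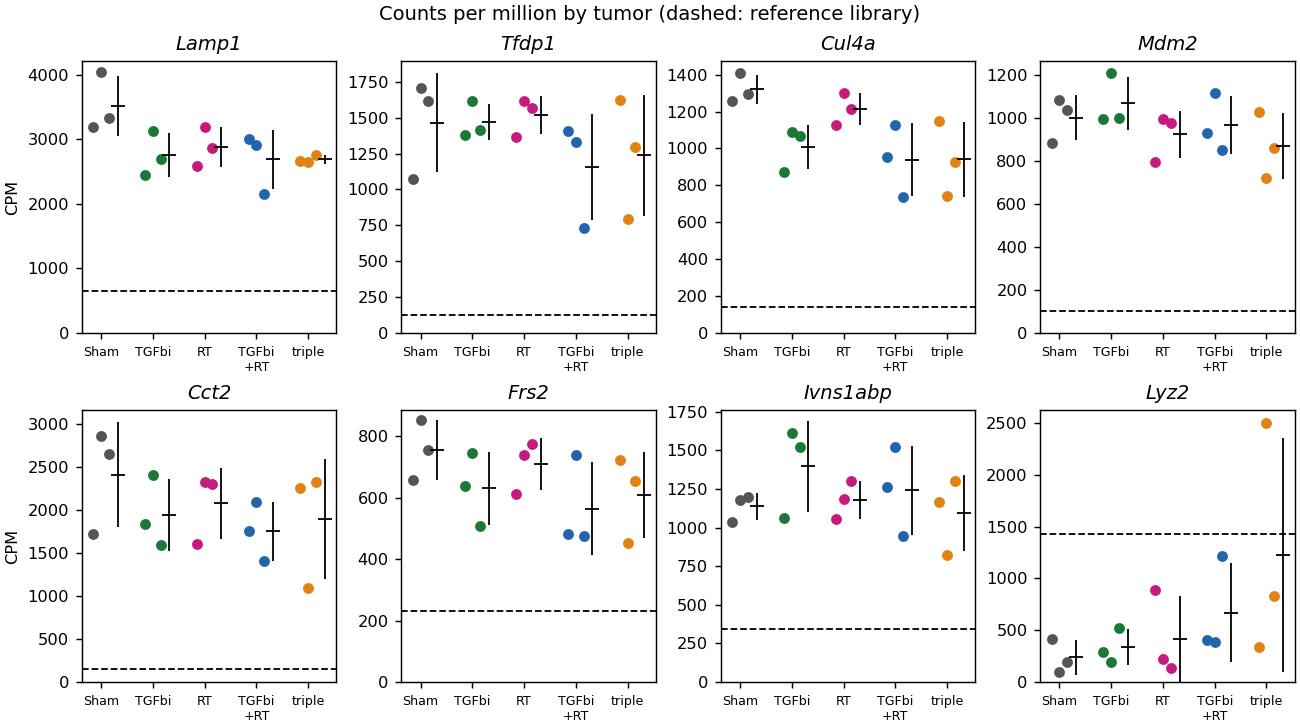
Levels in CPM (vertical axes from 0) of 8 members in each of 15 tumors by treatment group, with black bars for group mean ± SD and a dashed line for the reference library. The tumors lie above the line for the 7 genes other than Lyz2 and below it for Lyz2 in all but triple replicate 2, at 2502 CPM.

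The smallest F-test p of chromosome 8 belonged to F7. It was at 0.489, 0.33 and 0.0657 CPM in the Sham tumors, 1.80, 0.571 and 0.328 with TGFbi, 0.434, 0.0686 and 0.426 with RT, 1.55, 0.797 and 14.6 with TGFbi+RT, and 0.265, 2.77 and 1.60 in the triple group. The TGFbi+RT mean rested on replicate 3, and the log2 fold change against Sham was 4.23 ± 1.24 (edgeR adjusted p = 0.207) and 1.97 without that tumor and triple replicate 2 (adjusted p = 0.595). F10, its neighbour, was at 69.3, 60.4 and 76.2 CPM in the Sham tumors, 38.9, 59.7 and 45.4 with TGFbi, 57.6, 63.6 and 53.5 with RT, 46.8, 52.9 and 46.2 with TGFbi+RT, and 48.2, 34.4 and 45.2 in the triple group. TGFbi, TGFbi+RT and the triple group lay below all Sham tumors, and the log2 fold change in the triple group was -0.66 ± 0.17 (edgeR adjusted p = 0.194). DESeq2 called F7 in TGFbi+RT against Sham (4.28, adjusted p = 0.0158) and F10 in the triple group against Sham (-0.66, adjusted p = 0.0175).

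Lyz1 had the smallest F-test p of chromosome 10 (adjusted p = 0.346 in edgeR). Its log2 fold change in the triple group against Sham was 2.55 ± 0.79 (edgeR adjusted p = 0.212; DESeq2 adjusted p = 0.021). Lyz2 was at 418, 95.8 and 195 CPM in the Sham tumors, 293, 191 and 524 with TGFbi, 889, 225 and 134 with RT, 401, 383 and 1219 with TGFbi+RT, and 341, 2502 and 833 in the triple group. The triple group overlapped Sham through replicate 1, and the log2 fold change was 2.41 ± 0.88 (edgeR adjusted p = 0.246). Without the 2 tumors that stood apart it was 1.32 for Lyz2 (adjusted p = 0.699) and 1.66 for Lyz1 (0.580), and with the library code in the model 0.56 for Lyz2 and 0.88 for Lyz1 (both 1.0). Macrophage marker sums were 124 to 430.2 CPM in Sham and 393 to 2439 CPM in the triple group, and their part in these values was not tested.

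Apobec4 had the smallest F-test p of chromosome 1 (adjusted p = 0.399 in edgeR), from levels of at most 5.63 CPM. Its largest contrast was TGFbi+RT against RT, 1.53 ± 0.43 (edgeR adjusted p = 0.453), and 0.94 with the library code in the model (adjusted p = 0.574). Niban1, a stress-response gene named after its values were seen, was at 312, 296 and 164 CPM in the Sham tumors, 191, 89.2 and 86.2 with TGFbi, 128, 107 and 139 with RT, 191, 211 and 111 with TGFbi+RT, and 109, 226 and 151 in the triple group. It had -1.08 ± 0.37 for TGFbi and -1.03 ± 0.37 for RT against Sham (edgeR adjusted p = 0.446 and 0.999), the latter -1.83 with the library code in the model (adjusted p = 0.897), and the TGFbi tumors overlapped the lowest Sham tumor. Gas6 had -0.94 ± 0.40 for TGFbi against Sham (edgeR adjusted p = 0.5396). A test of whether the effect of TGFbi differed with and without RT, added after the data were seen, called 0 of 67 members, with 3 at an unadjusted p under 0.05 beside 3.8% of all genes, of which 0% were called.

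The partner lists were likewise not called with treatment. All genes of the CCT (8), cullin-RING ligase 4 (9), E2F and pocket protein (13), p53 (22), FGF receptor (16) and lysosome membrane (10) lists were tested, members included. The laminin list (11), which holds no member, was tested too. In edgeR 0 genes of these lists passed in any of the 7 contrasts, beside 0.00624% of all genes in TGFbi against Sham and 0% in the rest. At an unadjusted p under 0.05 the CCT list had 0 genes in every contrast, and the p53 list had 4 of 22 in the triple group against Sham, beside 14.9% of all genes, the median of that list being 0.17. The laminin list had 4 of 11 in that contrast and 3 of 11 in TGFbi against Sham, beside 8.48% of all genes in the latter. In each other contrast it had at most 1.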

How the data were processed

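The authors deposited counts of read fragments per gene for 15 tumors and 1 reference library, raw and without normalization, on GRCm38 per the submitters' processing notes. The authors' deposited annotation adds other values, exon coordinates and exon length per Entrez gene. Column names mention Subread; its version, the strand setting and the annotation release are not given in the sources used here. Symbols were joined by Entrez identifier (25275 of 27179 matched), and members without one are named by it.

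Counts were analysed with edgeR 4.0.16 in R 4.3.3 (TMM, filterByExpr on the 5 groups, quasi-likelihood fit of 15 tumors with 1 mean per group, 10 residual degrees of freedom), and p-values were adjusted by Benjamini-Hochberg over 16017 genes, called under 0.05. Each tumor is a separate mouse. DESeq2 1.42.0, limma-voom (limma 3.58.1), other scalings and filters, library code, a replicate block and leaving out libraries were alternatives, and the tests were checked on simulated data. The tumor and reference ratio used a pseudocount of 1 CPM.

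The genes named were Lamp1, Tfdp1, Cul4a, Mdm2, Cct2, Frs2, Ivns1abp and, per stretch, the 3 highest levels per kilobase, the 3 highest and 3 lowest ratios among members with at least 100 tumor counts, the smallest F-test p, Lyz1, Lyz2 and Gas6, and the 2 nearest genes on either side of each limit; any other gene is said to be picked on its values, or comes from the partner lists. Some genes this rule names are not reported here. The members and lists were chosen with earlier results of these data known. Exons of 14 members overlap another gene.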

Additional observations from a re-analysis of the deposited data

How the results depend on the processing

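The ratios to the reference rest on 1 library and on low reference counts. With a pseudocount of 0.1 the median log2 ratio of chromosome 10 was 2.32; with a pseudocount of 5 it was 1.72 on chromosome 8 and 0.86 on chromosome 10. Restricted to members with at least 10 reference counts it was 2.75 on chromosome 8 and 2.58 on chromosome 10, and with only the Sham tumors it was 2.38 on chromosome 1. Leaving out each tumor in turn gave 1.93 to 2.00, 1.27 to 1.35 and 2.02 to 2.08 on chromosomes 8, 10 and 1. Scaling by total counts moved the median of all genes from 0.07 to -0.05. DESeq2 called 1 member in TGFbi+RT against Sham, 3 in the triple group against Sham (F10, Lyz1 and Entrez 100861876) and 1 in TGFbi+RT against RT (F7), among 499, 629 and 69 genes in all; the cause of the difference from edgeR was not tested, and DESeq2 was not run for the F test. Every other alternative run, including edgeR without each tumor in turn, called 0 members. The main fit did not treat replicate numbers as pairs. Of 30 same-number pairs 13 correlated over 0.1, and 6 of 15 tumors correlated best with their own number. Correlations ran from -0.579 to 0.671 in same-number pairs and from -0.531 to 0.693 in other pairs. These ranges show no sign of pairing but cannot exclude it. The fit with the replicate block also called 0 members and moved the chromosome 10 median of TGFbi+RT against Sham from 0.11 to -0.03. With 3 tumors a group, a p above the threshold does not show that groups are alike.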
